A study of Homo sapiens with 12 samples.

Results

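Described here are the EPHB receptors and ephrin-B ligands, 8 of the 27130 genes of an RNA-seq count table of human embryonic stem cells. They are the receptor genes EPHB1, EPHB2, EPHB3, EPHB4 and EPHB6 and the ligand genes EFNB1, EFNB2 and EFNB3, found by their symbols in the deposited table. The family was picked from earlier results on these same libraries, so its levels and differences are given as a description, and a call on a member only says where that gene stood in a fit over all genes. All 8 had counts in every library, between 22 and 10046 reads per gene, and all 8 passed the filter on low counts. No threshold on the values separated members from other genes.

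The cells were H1 (WA01), a long established human embryonic stem cell line. Poly(A) RNA was sequenced in 12 libraries, 3 in each of 4 groups. The first group carried a homozygous knockout of ZNF263 together with overexpression of ZIC2 (KO with ZIC2). The others were the homozygous ZNF263 knockout (KO), H1 cells that overexpressed ZNF263 (ZNF263 OE), with no other change in their genotype label, and wild type cells (WT). Both ZNF263 and ZIC2 are zinc finger transcription factors. The library names of the KO and WT groups hold the tag vec. Those of both knockout groups share a further tag that is absent from the WT and ZNF263 OE names. Whether both groups came from the same knockout cells is not stated. The promoters that drove the overexpression, the kind of edit, the number of knockout clones and whether the libraries of a group were separate cultures are not stated in any source used here. The spread between libraries may therefore be technical, and p-values measure only that spread.

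Eph receptors are receptor tyrosine kinases of the cell surface, and their ephrin ligands are bound to the membrane of the neighbouring cell. Ephrin-B ligands span the membrane, so contact sends a forward signal into the cell with the receptor and a reverse signal into the cell with the ligand. Such contacts repel or sort cells, guide axons and keep tissue boundaries. EPHB4 binds mainly ephrin-B2, and the pair marks venous and arterial endothelium. EPHB6 lacks kinase activity. EPHB2 and EPHB3 position cells in intestinal crypts, where WNT signalling raises both. In the mouse retina, Zic2 and EphB1 are known to act in the same ganglion cells, whose axons do not cross the midline.

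In KO with ZIC2 cells, EPHB3, EFNB1 and EPHB1 had the largest differences from KO cells among the 8 genes, with higher levels in every library. EFNB2 and EPHB2 were also higher in every KO with ZIC2 library than in KO libraries, by less. The 250 bases before the start of the first 3 genes are printed because of the size of that difference. For KO against WT these genes did not move together: EFNB1 was called lower (-0.72), and EPHB3 (-0.30) and EPHB1 (0.19) were not called. The bases are RefSeq sequences of GRCh38.p14, 5′ to 3′ on the strand of the gene. Capitals mark the GC box (GGGCGG) and the CCAAT box (CCAAT), on either strand, so that a box on the other strand reads CCGCCC or ATTGG.
EPHB1, chr3:134795010-134795259, plus strand: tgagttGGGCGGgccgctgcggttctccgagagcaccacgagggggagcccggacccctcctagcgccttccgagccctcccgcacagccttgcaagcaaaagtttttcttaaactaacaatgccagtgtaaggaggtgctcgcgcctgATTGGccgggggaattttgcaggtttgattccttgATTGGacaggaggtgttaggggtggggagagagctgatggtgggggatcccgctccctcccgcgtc
EPHB3, chr3:184561535-184561784, plus strand: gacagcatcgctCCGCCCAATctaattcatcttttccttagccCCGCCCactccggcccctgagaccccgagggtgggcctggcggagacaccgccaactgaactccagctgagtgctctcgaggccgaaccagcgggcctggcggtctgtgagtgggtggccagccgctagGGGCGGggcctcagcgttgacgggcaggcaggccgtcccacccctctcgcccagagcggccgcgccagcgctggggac
EFNB1, chrX:68828771-68829020, plus strand: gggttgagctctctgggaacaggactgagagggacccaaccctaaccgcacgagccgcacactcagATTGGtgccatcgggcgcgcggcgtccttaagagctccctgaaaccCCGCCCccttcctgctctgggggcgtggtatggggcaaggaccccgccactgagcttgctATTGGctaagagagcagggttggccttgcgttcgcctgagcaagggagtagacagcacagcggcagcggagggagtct

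The letters GGGAGGA, the core of the published ZNF263 motif, and CAGCAGG, the core of published ZIC motifs, were searched on both strands of these windows. Neither was found in the windows of the 7 members that had an entry in the promoter table; EFNB3 had none. Of the 35116 promoters of that table, 16.0% held GGGAGGA and 8.48% held CAGCAGG in the same window. The search for the GC box and the CCAAT box was added after the data had been seen. EPHB1 held 1 GC box and 2 CCAAT boxes, and EFNB1 1 GC box and 2 CCAAT boxes. EPHB3 held 3 GC boxes and 1 CCAAT box that overlaps a GC box. Of the other members with an entry, EPHB4 held 4 GC boxes and 1 CCAAT box, and EFNB2 3 GC boxes and 2 CCAAT boxes. EPHB6 held 1 of each, and EPHB2 1 GC box and 0 CCAAT boxes in each of its entries. The boxes were thus not particular to the 3 genes printed. Over all promoters, 42.6% held a GC box and 32.0% a CCAAT box. A match of letters is a description and no evidence of binding.

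The libraries held between 17175183 and 21804410 counts, except KO replicate 1 with 43464609 counts. ZNF263 averaged 32.2 ± 3.15 CPM (counts scaled to library size, TMM-adjusted) in KO with ZIC2 cells, 31.1 ± 0.129 CPM in KO cells, 240 ± 18.0 CPM in ZNF263 OE cells and 39.2 ± 1.35 CPM in WT cells (SD, n = 3 each). The labelled knockout therefore kept most of its ZNF263 RNA, and RNA counts over the gene do not show whether protein was made. ZIC2 averaged 2040 ± 175 CPM in KO with ZIC2 cells, 156 ± 3.81 CPM in KO cells, 212 ± 4.67 CPM in ZNF263 OE cells and 208 ± 3.74 CPM in WT cells. All 10 of 10 embryonic stem cell markers were over 1 CPM in every group, with sums of 8218 to 8338 CPM in KO with ZIC2 libraries, 8711 to 8756 in KO, 8491 to 8660 in ZNF263 OE and 8316 to 8429 in WT libraries. Single markers of that list went both ways. POU5F1 averaged 79.5 CPM in KO with ZIC2, 82.5 in KO, 64.6 in ZNF263 OE and 62.8 in WT cells. L1TD1 averaged 1221 CPM in KO with ZIC2, 1260 in KO, 1457 in ZNF263 OE and 1515 in WT cells. Changes in the share of a cell type and in RNA per cell cannot be told apart in such bulk samples.

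Divided by the summed length of each gene's exons, EPHB4 had the highest level of the 8 genes in every group. It averaged 53.0 CPM per kb in KO with ZIC2 cells, 53.6 in KO, 43.9 in ZNF263 OE and 44.1 in WT cells. In WT cells EFNB2 (6.85 CPM per kb), EFNB3 (6.31) and EPHB6 (6.12) came next, and the libraries of neighbours in that order overlapped. EFNB1 followed with 3.65 CPM per kb, then EPHB2 (2.09) and EPHB1 (1.78), whose libraries overlapped, and EPHB3 was lowest with 0.411 CPM per kb. The EPHB2 value was divided by a long exon total of 11039 bases in the table, against 3219 to 4675 bases for the other members. Which transcripts of EPHB2 the cells used was not tested.

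The order differed in KO with ZIC2 cells. There EFNB1 came second with 12.7 CPM per kb, ahead of EFNB2 (10.3), EPHB6 (6.64), EFNB3 (5.82), EPHB1 (3.68), EPHB3 (2.60) and EPHB2 (2.09), and the libraries of each pair of neighbours were apart. In KO cells EFNB2 (8.10 CPM per kb), EPHB6 (7.17) and EFNB3 (5.90) followed EPHB4, and EFNB1 (2.26), EPHB1 (2.03), EPHB2 (1.72) and EPHB3 (0.325) came after them, each pair of neighbours apart. In ZNF263 OE cells EFNB2 (6.99 CPM per kb), EFNB3 (6.96) and EPHB6 (6.75) overlapped, as did EPHB1 (2.18) and EPHB2 (2.15). EFNB1 lay between these sets with 4.09 CPM per kb, and EPHB3 was again lowest with 0.464 CPM per kb.

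**Figure D1:**
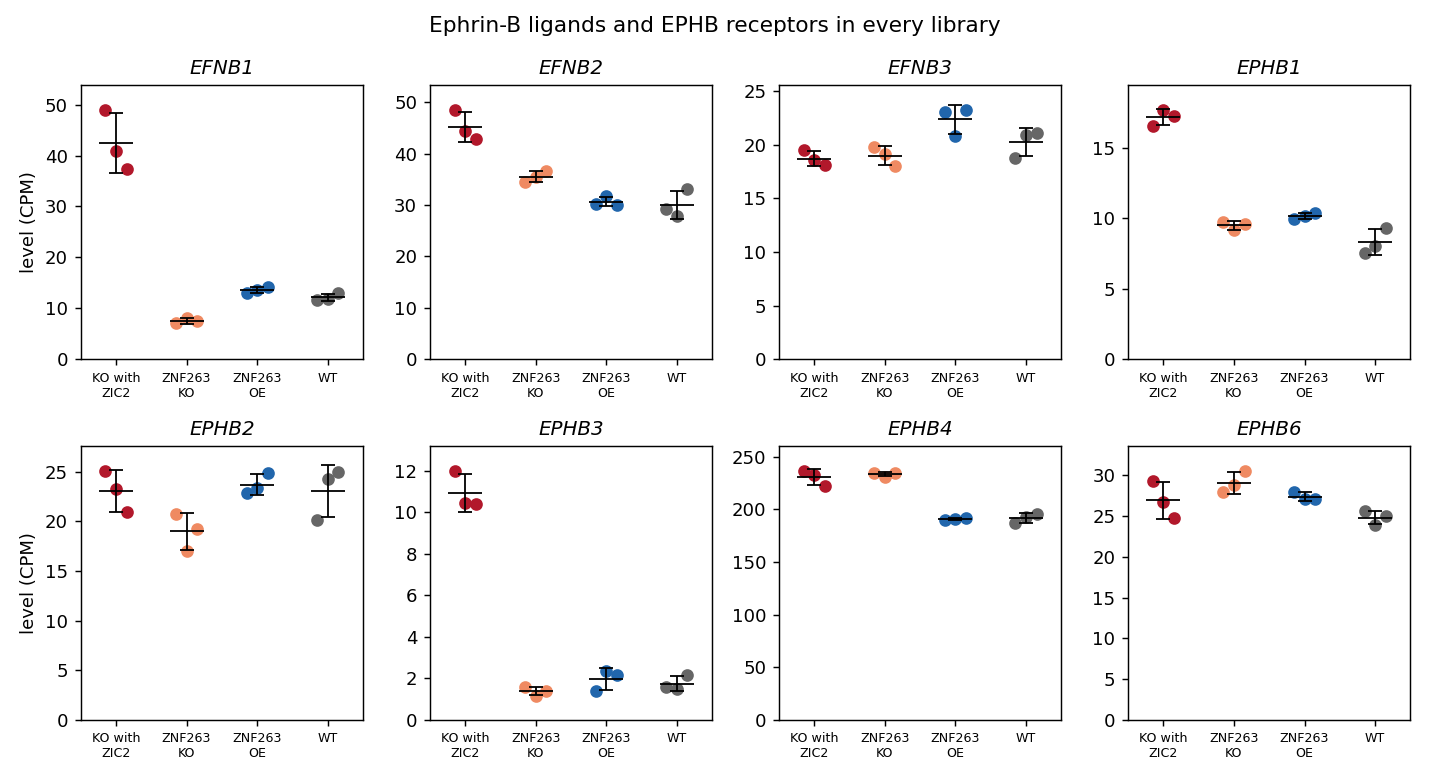
Level in CPM (linear axes from 0, scaled per gene) of the 8 genes; points are libraries, the bar and whiskers are the mean and SD of 3 libraries, and groups run KO with ZIC2, ZNF263 KO, ZNF263 OE, WT. EFNB1 and EPHB3 are several times higher in KO with ZIC2 libraries than in all others, EPHB4 is higher in both knockout groups, and EFNB3 lies within a narrow range.

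EFNB1 encodes the ephrin-B1 ligand, whose gene lies on the X chromosome (hg19, chromosome X, 68048840 to 68062006, plus strand) and is mutated in craniofrontonasal syndrome. EFNB1 had 49.0, 40.9 and 37.4 CPM in the KO with ZIC2 libraries, against 7.04, 8.11 and 7.41 CPM in the KO libraries. The ZNF263 OE libraries had 13.0, 13.6 and 14.2 CPM for EFNB1, and the WT libraries 11.7, 11.8 and 13.0 CPM. The KO libraries were the lowest of all 12, the KO with ZIC2 libraries the highest, and neither set overlapped any other.

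Relative to KO cells, EFNB1 was higher in KO with ZIC2 cells by 2.52 on the log2 scale (SE 0.09, 95% interval 2.33 to 2.71), a fold of 5.73. Relative to WT cells it was higher by 1.80 (SE 0.09), a fold of 3.49. In KO cells EFNB1 was lower than in WT cells, with a log2 fold change of -0.72 (SE 0.11, 95% interval -0.94 to -0.49). EFNB1 was called in these 3 comparisons and was the only member lower in KO than in WT cells and higher in KO with ZIC2 than in WT cells with a call each time. In ZNF263 OE cells its libraries all lay above those of WT cells, but the log2 fold change of 0.16 (95% interval -0.05 to 0.37) was not called.

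EFNB2 encodes ephrin-B2, the arterial ligand of EPHB4 (chromosome 13, 107142079 to 107187388, minus strand). EFNB2 had 48.5, 44.4 and 42.8 CPM in KO with ZIC2 libraries, against 34.5, 35.4 and 36.7 CPM in KO libraries. In ZNF263 OE libraries EFNB2 had 30.2, 31.8 and 30.0 CPM, against 29.2, 27.8 and 33.1 CPM in WT libraries. Levels formed 3 steps: KO with ZIC2 libraries above KO libraries, and KO libraries above the overlapping ZNF263 OE and WT libraries. The log2 fold change was 0.35 (SE 0.06) for KO with ZIC2 against KO and 0.59 (SE 0.06) for KO with ZIC2 against WT. For KO against WT it was 0.23 (SE 0.06), and this call was lost without WT replicate 2 (0.18, adjusted p = 0.0541 in the edgeR quasi-likelihood test).

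EFNB3 encodes ephrin-B3, a ligand known as a midline barrier to corticospinal axons in mice (chromosome 17, 7608520 to 7614693, plus strand). EFNB3 had 19.5, 18.6 and 18.1 CPM in KO with ZIC2 libraries and 19.8, 19.2 and 18.0 CPM in KO libraries. It had 23.1, 20.8 and 23.3 CPM in ZNF263 OE libraries and 18.8, 21.0 and 21.2 CPM in WT libraries. In each of the 4 comparisons the libraries overlapped and EFNB3 was not called. The 95% interval of its log2 fold change ran from -0.17 to 0.12 for KO with ZIC2 against KO and from -0.23 to 0.05 for KO against WT. With offsets for GC content and length EFNB3 was called lower in KO than in WT cells (-0.19, edgeR adjusted p = 0.0267) and in KO with ZIC2 than in WT cells (-0.29, edgeR adjusted p = 0.00181).

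Summed per kb, ephrin-B transcripts reached 28.9 ± 2.67 CPM per kb in KO with ZIC2 cells, against 16.3 ± 0.186 in KO, 18.0 ± 0.293 in ZNF263 OE and 16.8 ± 1.07 in WT cells (SD, n = 3 each). The sum in KO cells overlapped that in WT cells while its makeup differed. EFNB1 made up 44.0 ± 2.03% of the sum in KO with ZIC2 cells, 13.9 ± 0.856% in KO cells, 22.7 ± 0.834% in ZNF263 OE cells and 21.7 ± 0.174% in WT cells. EFNB2 made up 35.8 ± 0.962% in KO with ZIC2 cells, 49.8 ± 1.59% in KO cells, 38.8 ± 1.73% in ZNF263 OE cells and 40.7 ± 1.80% in WT cells. By mean level per kb, the most abundant ephrin-B transcript was EFNB1 in KO with ZIC2 cells and EFNB2 in KO, ZNF263 OE and WT cells; in the ZNF263 OE and WT groups the libraries of EFNB2 and EFNB3 overlapped.

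**Figure D2:**
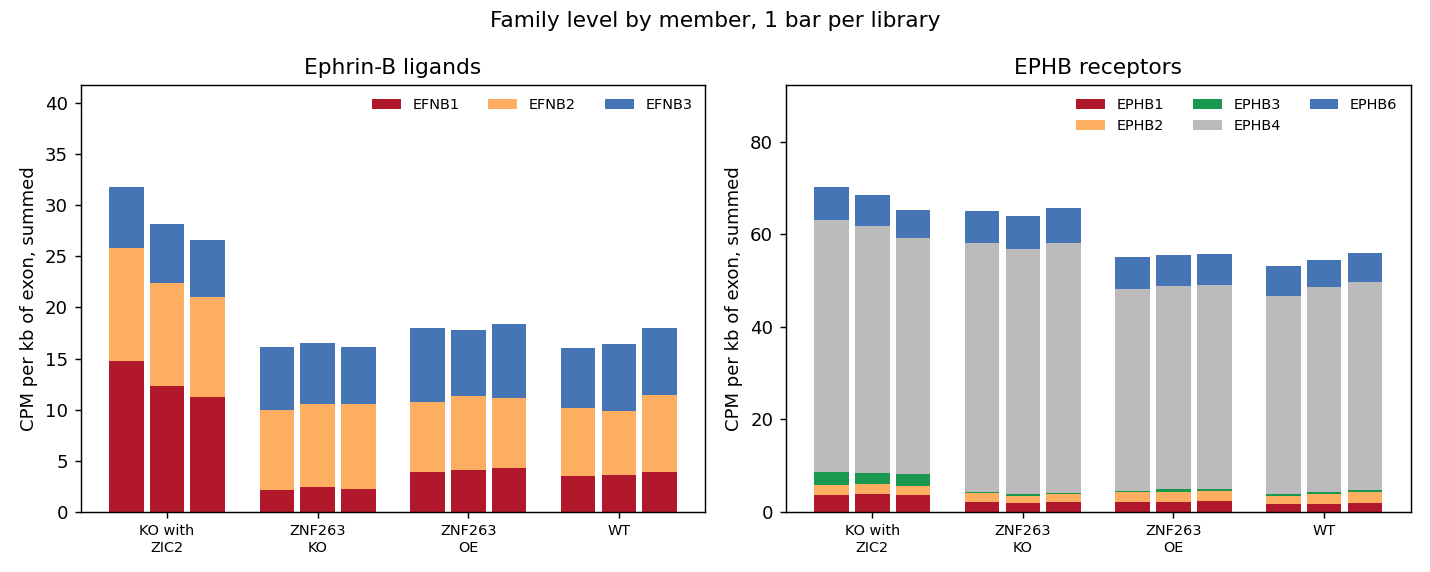
Summed level of the ephrin-B ligand genes (left) and EPHB receptor genes (right) in CPM per kb of exon, 1 stacked bar per library, grouped as KO with ZIC2, ZNF263 KO, ZNF263 OE and WT; colours are genes. The EFNB1 part of the ligand bar is largest in KO with ZIC2 cells (44.0%) and smallest in KO cells (13.9%), and EPHB4 fills most of every receptor bar.

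EPHB3 is a kinase-active receptor of intestinal crypts and commissural axons (chromosome 3, 184279587 to 184300196, plus strand). EPHB3 had 12.01, 10.4 and 10.4 CPM in KO with ZIC2 libraries, against 1.56, 1.16 and 1.40 CPM in KO libraries. These values rest on 237, 189 and 178 reads in KO with ZIC2 libraries and on 67, 22 and 30 reads in KO libraries. The ZNF263 OE libraries had 1.36, 2.33 and 2.18 CPM and the WT libraries 1.56, 1.49 and 2.14 CPM of EPHB3. Every KO with ZIC2 library lay far above the other 9, which overlapped each other across the groups.

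For KO with ZIC2 against KO, the log2 fold change of EPHB3 was 2.95 (SE 0.15, 95% interval 2.63 to 3.26), a fold of 7.70 and the 13th largest difference in size among the 15437 genes tested; EFNB1 was the 22nd. Against WT cells the fold of EPHB3 in KO with ZIC2 cells was 6.25. For KO against WT the log2 fold change was -0.30, with a 95% interval of -0.75 to 0.15, and EPHB3 was not called. Without WT replicate 3 that value was -0.11 (edgeR adjusted p = 0.781).

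EPHB1 encodes a receptor known from retinal axon guidance in mice (chromosome 3, 134514099 to 134979307, plus strand). EPHB1 had 16.6, 17.7 and 17.3 CPM in KO with ZIC2 libraries, against 9.71, 9.17 and 9.61 CPM in KO libraries. It had 9.93, 10.2 and 10.4 CPM in ZNF263 OE libraries, against 7.57, 8.05 and 9.34 CPM in WT libraries. The KO with ZIC2 libraries stood apart from all others, and the WT libraries were low but overlapped the KO libraries. The log2 fold change was 0.85 (SE 0.08, a fold of 1.80) for KO with ZIC2 against KO and 1.04 (SE 0.08, a fold of 2.05) for KO with ZIC2 against WT. EPHB1 was not called for KO against WT (0.19, 95% interval 0.01 to 0.37, edgeR adjusted p = 0.0925), but without WT replicate 3 it was (0.28, edgeR adjusted p = 0.0284). Without WT replicate 1 the EPHB1 value was 0.12 (edgeR adjusted p = 0.34).

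EPHB4 encodes the venous receptor of ephrin-B2 (chromosome 7, 100400187 to 100425143, minus strand). EPHB4 had 237, 233 and 222 CPM in KO with ZIC2 libraries and 234, 231 and 235 CPM in KO libraries. ZNF263 OE libraries had 189.9, 191 and 192 CPM and WT libraries 187, 193 and 196 CPM of EPHB4. Both knockout groups lay above both other groups with no overlap, and overlapped each other. The log2 fold change was 0.28 (SE 0.04) for KO against WT and 0.27 (SE 0.04) for KO with ZIC2 against WT. It was -0.02 (95% interval -0.09 to 0.06) for KO with ZIC2 against KO and -0.01 (95% interval -0.08 to 0.07) for ZNF263 OE against WT. With offsets for GC content and length, the KO against WT value was 0.17 and the KO with ZIC2 against WT value 0.08, and EPHB4 was also called lower in KO with ZIC2 than in KO cells (-0.09, edgeR adjusted p = 0.0203).

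EPHB6 encodes the receptor without kinase activity (chromosome 7, 142552776 to 142568847, plus strand). EPHB6 had 29.3, 26.8 and 24.8 CPM in KO with ZIC2 libraries and 27.9, 28.8 and 30.6 CPM in KO libraries. It had 28.0, 27.2 and 27.1 CPM in ZNF263 OE libraries and 25.6, 23.9 and 25.0 CPM in WT libraries. The KO and the ZNF263 OE libraries lay above the WT libraries, while the KO with ZIC2 libraries overlapped each of the other groups. For KO against WT the log2 fold change was 0.22 (SE 0.06) and was called, but with offsets for GC content and length it was 0.11 (edgeR adjusted p = 0.164) and the call was lost. KO with ZIC2 against WT gave 0.12 and KO with ZIC2 against KO gave -0.10, neither called. Those calls depended on the settings: without KO with ZIC2 replicate 3 the difference from WT was 0.18 (edgeR adjusted p = 0.0477), while without KO with ZIC2 replicate 1 it was 0.06 (edgeR adjusted p = 0.59) and with the GC and length offsets it turned to -0.07 (edgeR adjusted p = 0.471). With the same offsets the difference from KO was -0.17 (edgeR adjusted p = 0.0363).

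EPHB2 encodes a receptor of intestinal crypts and of excitatory synapses (chromosome 1, 23037331 to 23247993, plus strand). EPHB2 had 25.1, 23.3 and 20.9 CPM in KO with ZIC2 libraries, against 20.7, 17.0 and 19.3 CPM in KO libraries. It had 22.9, 23.3 and 24.9 CPM in ZNF263 OE libraries and 20.1, 24.3 and 25.0 CPM in WT libraries. KO libraries were low, but WT replicate 1 lay within their range. For KO against WT the log2 fold change was -0.27 (SE 0.08) and was called; without WT replicate 2 it was -0.24 (edgeR adjusted p = 0.0576) and without WT replicate 3 -0.21 (edgeR adjusted p = 0.0873). For KO with ZIC2 against KO it was 0.27 (95% interval 0.09 to 0.44, edgeR adjusted p = 0.0506), just short of a call although the KO with ZIC2 libraries all lay above the KO libraries. That difference was called without KO replicate 1 (0.34, edgeR adjusted p = 0.0169), without KO with ZIC2 replicate 3 (0.33, edgeR adjusted p = 0.0254) with no filter on low counts (0.26, edgeR adjusted p = 0.00763) and with the GC and length offsets (0.20, edgeR adjusted p = 0.0445). Without KO with ZIC2 replicate 1 the EPHB2 value was 0.20 (edgeR adjusted p = 0.288).

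Summed over the receptors, levels were 68.0 ± 2.53 CPM per kb in KO with ZIC2 cells, 64.9 ± 0.829 in KO, 55.4 ± 0.331 in ZNF263 OE and 54.5 ± 1.42 in WT cells (SD, n = 3 each). EPHB4 made up 78.0 ± 0.471% of the sum in KO with ZIC2 cells, 82.7 ± 0.411% in KO, 79.2 ± 0.111% in ZNF263 OE and 80.9 ± 0.426% in WT cells. EPHB3 made up 3.81 ± 0.219% in KO with ZIC2 cells, against 0.501 ± 0.0699% in KO, 0.836 ± 0.219% in ZNF263 OE and 0.752 ± 0.138% in WT cells. The receptor repertoire by transcript thus stayed mostly EPHB4 in all 4 groups.

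By comparison, with genes called at an adjusted p under 0.05 over all genes tested (edgeR), KO with ZIC2 against KO had 4 members higher (EPHB3, EFNB1, EPHB1 and EFNB2), where 4.99% of all tested genes were called higher, and 0 lower, where 3.35% were called lower. At an unadjusted p under 0.05 the counts were 5 higher and 0 lower, beside 1594 and 1485 of the 15437 genes tested. DESeq2 gave 4 and 0, beside 536 and 385 of the same genes. With the GC and length offsets 5 members were higher and 2 lower, beside 882 and 1440 of all tested genes. KO against WT had 3 members higher (EPHB4, EFNB2 and EPHB6), against 20.0% of all tested genes, and 2 lower (EFNB1 and EPHB2), against 18.5%. With the GC and length offsets the split was 2 higher and 3 lower, beside 2455 and 2152 of all tested genes. KO with ZIC2 against WT had 5 higher (EPHB3, EFNB1, EPHB1, EFNB2 and EPHB4), against 20.3% of tested genes, and 0 lower, against 17.3%. At an unadjusted p under 0.05, KO with ZIC2 against WT also had 5 and 0, beside 3721 and 3337 of all tested genes. DESeq2 also gave 5 and 0, beside 2500 and 2301 of those genes. With the GC and length offsets 5 members were higher and 1 lower (EFNB3, -0.29), beside 2012 and 2480 of all tested genes. Without KO with ZIC2 replicate 3, 6 members were higher and 0 lower, beside 2944 and 2542 of all genes tested in that fit. ZNF263 OE against WT had 0 higher, against 0.317%, and 0 lower, against 0.447%. In that comparison 2 members were higher and 0 lower at an unadjusted p under 0.05 (EPHB1 with a log2 fold change of 0.28 and EPHB6 with 0.14). Of all tested genes, 812 were higher and 818 lower at that threshold. DESeq2 called 0 members, beside 37 genes higher and 65 lower. Since the members were chosen with results of these comparisons known, nothing is read from these counts against the shares of all genes. The same numbers over all genes apply to the gene lists below.

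**Figure D3:**
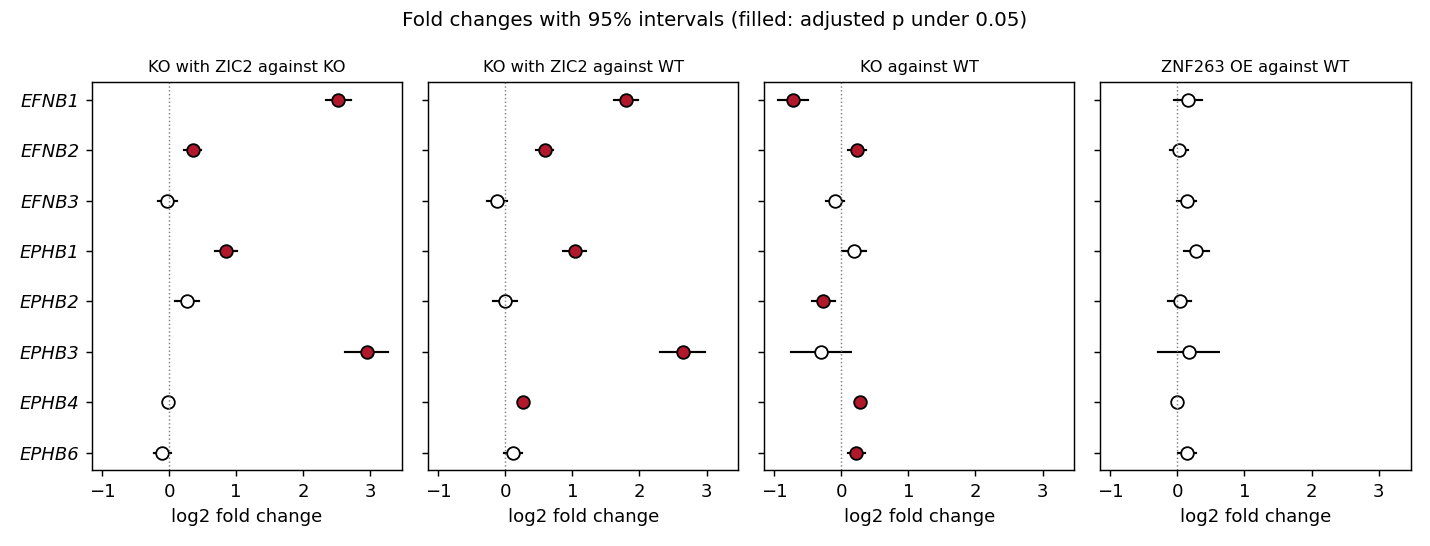
Log2 fold change (points) and 95% interval (lines) of the 8 genes in 4 comparisons that share libraries; filled points passed an edgeR adjusted p of 0.05 over all genes. EPHB3 (2.95) and EFNB1 (2.52) lie farthest from 0 for KO with ZIC2 against KO, EFNB1 lies on opposite sides of 0 for KO against WT and KO with ZIC2 against WT, and no point is filled for ZNF263 OE against WT.

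The median log2 fold change of the 8 members was 0.31 for KO with ZIC2 against KO, beside 0.00 over all genes tested, and 0.43 for KO with ZIC2 against WT, beside 0.00. It was 0.05 for KO against WT, beside -0.01, and 0.14 for ZNF263 OE against WT, beside 0.00. The 14 A-class genes, which encode the EPHA receptors and the lipid-anchored ephrin-A ligands, had medians of -0.11, -0.03, 0.06 and 0.12 in the same order of comparisons. In KO with ZIC2 against KO, edgeR called 0 of these 14 genes, where 4.99% of all tested genes were called higher and 3.35% lower. At an unadjusted p under 0.05, 0 of the 14 were higher and 3 lower, beside 1594 and 1485 of all 15437 genes tested. DESeq2 called 0 of the 14 genes. Their log2 fold changes there ran between -0.52 and 0.17. No test of the B class against the A class was made.

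**Figure D4:**
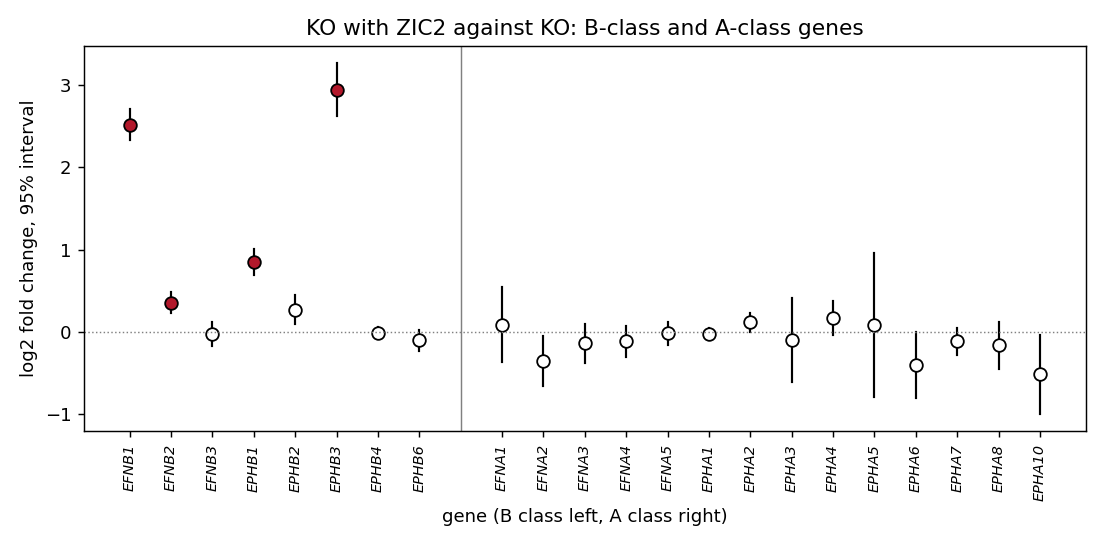
Log2 fold change (points) with 95% interval (lines) for KO with ZIC2 against KO in the 8 B-class genes (left of the line) and the 14 A-class genes (right); filled points passed an edgeR adjusted p of 0.05 over all genes. The filled points are EFNB1, EFNB2, EPHB1 and EPHB3, and the A-class values lie between -0.52 and 0.17.

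Against WT cells, A-class genes were called in both directions. In KO cells 3 of 14 were higher and 2 lower, where 20.0% of all tested genes were called higher and 18.5% lower. EPHA2, a receptor of epithelial cells, averaged 65.5 ± 2.05 CPM in KO cells and 44.4 ± 1.99 CPM in WT cells (SD, n = 3 each; log2 fold change 0.55, edgeR adjusted p = 1.75e-07), and EFNA5 was higher by 0.29 (edgeR adjusted p = 0.00129). EPHA4, which binds ephrins of both classes, averaged 8.498 ± 0.669 CPM in KO cells and 12.4 ± 0.670 CPM in WT cells (-0.54, edgeR adjusted p = 8.17e-05). EPHA3 was lower by a log2 fold change of -0.93 (edgeR adjusted p = 0.00118). EPHA6 was called higher (0.50, edgeR adjusted p = 0.0443) but not by DESeq2 (0.50, adjusted p = 0.177), nor without WT replicate 1 (0.38, edgeR adjusted p = 0.184), WT replicate 2, KO replicate 1 or KO replicate 3. In KO with ZIC2 cells, 2 of 14 were higher than in WT cells, EPHA2 (0.67) and EFNA5 (0.27). In the same comparison 4 were lower: EPHA3 (-1.03), EFNA2 (-0.56), EPHA4 (-0.37) and EPHA7 (-0.28). Of all tested genes, 20.3% were called higher and 17.3% lower there. The EPHA7 call was lost with the GC and length offsets (-0.11, edgeR adjusted p = 0.319) and without WT replicate 2 (-0.24, edgeR adjusted p = 0.0525). In ZNF263 OE cells edgeR and DESeq2 called 0 of 14, and at an unadjusted p under 0.05 1 was higher (EFNA2, 0.36) and 0 were lower.

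Forward signalling genes, which encode adaptors, kinases and guanine nucleotide exchange factors that act with Eph receptors, were all tested (35 of 35). For KO with ZIC2 against KO, 2 were higher and 1 lower, where 4.99% and 3.35% of all tested genes were called. NGEF, which encodes the exchange factor ephexin-1, averaged 8.63 ± 0.476 CPM in KO with ZIC2 cells and 2.34 ± 0.298 CPM in KO cells (SD, n = 3 each; log2 fold change 1.88, edgeR adjusted p = 6.51e-10). PTK2, the focal adhesion kinase gene, was higher by 0.17 (edgeR adjusted p = 0.00703). The exchange factor gene ARHGEF19 was lower by a log2 fold change of -0.17 (edgeR adjusted p = 0.0448), and DESeq2 did not call it (-0.18, adjusted p = 0.0585). The ARHGEF19 call was also lost without KO replicate 3 (-0.12, edgeR adjusted p = 0.216), without KO with ZIC2 replicate 1 or 2 (-0.16 and -0.14) and with only those groups fitted (-0.16). For KO against WT, 8 of 35 were higher and 7 lower, close to the 20.0% and 18.5% of all tested genes. The leading genes were the adaptor gene NCK2 (0.35), ARHGEF19 (0.33) and ARHGEF16 (0.32), all higher; with the GC and length offsets ARHGEF19 was 0.20 and ARHGEF16 0.18, both still called. For KO with ZIC2 against WT, 8 were higher and 7 lower, where 20.3% and 17.3% of all tested genes were called; they were led by NGEF (1.71), NCK2 (0.35) and the adaptor gene GRB7 (0.46). NCK2 was 0.18 and GRB7 0.28 in that comparison with the GC and length offsets, both still called. For ZNF263 OE against WT, edgeR and DESeq2 called 0, and at an unadjusted p under 0.05 0 were higher and 1 lower.

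Among 16 genes of reverse signalling, whose products bind or act with ephrin-B, KO with ZIC2 against KO had 0 higher and 2 lower. Of all tested genes, 4.99% were called higher and 3.35% lower in that comparison. PARD6A, a polarity protein gene, averaged 9.86 ± 0.322 CPM in KO with ZIC2 cells and 12.7 ± 0.483 CPM in KO cells (SD, n = 3 each; log2 fold change -0.36, edgeR adjusted p = 0.00568). GRIP2, a PDZ scaffold gene, was lower by a log2 fold change of -0.63 (edgeR adjusted p = 0.0306) but was not called by DESeq2 (-0.64, adjusted p = 0.115). That call was also lost without KO replicate 1 (-0.57) and without any 1 of the KO with ZIC2 libraries (-0.66, -0.66 and -0.58). At an unadjusted p under 0.05, 1 of the 16 was higher and 4 lower, beside 1594 and 1485 of all 15437 genes tested. DESeq2 called 0 of the 16 higher and 1 lower. KO against WT had 8 higher and 2 lower, led by ZHX2 (-0.44), PARD6A (0.45) and the WNT mediator DVL2 (0.23), where 20.0% of all tested genes were called higher and 18.5% lower. With the GC and length offsets PARD6A was 0.23 and DVL2 0.12 there, both still called. KO with ZIC2 against WT had 5 higher and 2 lower, led by ZHX2 (-0.29), the claudin gene CLDN4 (0.58) and GRIP2 (-0.77), where 20.3% and 17.3% of all tested genes were called. For ZNF263 OE against WT edgeR and DESeq2 called 0, and at an unadjusted p under 0.05 0 were higher and 1 lower.

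Of 12 genes for proteases that cut Eph receptors or ephrins, and for γ-secretase subunits, 11 were tested. For KO with ZIC2 against KO, the matrix metalloproteinase genes MMP14 (0.27) and MMP2 (0.19) were higher. In that comparison 4.99% of all tested genes were called higher and 3.35% lower. The MMP2 value was 0.12 with the GC and length offsets, and its call was lost without KO with ZIC2 replicate 1 (0.14, edgeR adjusted p = 0.078). MMP9 was lower, with 7.91 ± 0.661 CPM in KO with ZIC2 cells and 12.9 ± 0.904 CPM in KO cells (SD, n = 3 each; log2 fold change -0.70, edgeR adjusted p = 2.12e-05). KO against WT had 3 of 11 higher and 2 lower, beside 20.0% and 18.5% of all tested genes, led by MMP9, which averaged 7.67 ± 0.919 CPM in WT cells (0.74, edgeR adjusted p = 2.52e-06). The sheddase genes ADAM10 (-0.19) and ADAM17 (-0.22) were lower in KO than in WT cells, and both calls were lost with the GC and length offsets (-0.04, edgeR adjusted p = 0.348, and -0.08, edgeR adjusted p = 0.234). KO with ZIC2 against WT had 2 higher, MMP2 (0.34; 0.19 and still called with the GC and length offsets) and MMP14 (0.25), and 1 lower, ADAM10 (-0.20). The MMP14 and ADAM10 calls of that comparison were lost with those offsets (0.08, edgeR adjusted p = 0.146, and -0.07, edgeR adjusted p = 0.112). Of all tested genes, 20.3% were called higher and 17.3% lower for KO with ZIC2 against WT. ZNF263 OE against WT had 0 calls by edgeR and by DESeq2, with 0 higher and 3 lower at an unadjusted p under 0.05.

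Of 10 WNT target genes, listed because WNT signalling is known to raise EPHB2 and EPHB3 in intestine, 8 were tested. LEF1, a transcription factor gene of the pathway, was the only one called for KO with ZIC2 against KO, with 1.87 ± 0.358 CPM in KO with ZIC2 cells and 0.519 ± 0.131 CPM in KO cells (SD, n = 3 each; log2 fold change 1.78, edgeR adjusted p = 0.000112). The log2 fold changes of the 8 ran from -0.98 to 1.78 there, and 4.99% of all tested genes were called higher. At an unadjusted p under 0.05, 2 were higher and 1 lower, beside 1594 and 1485 of all 15437 genes tested. AXIN2, a feedback inhibitor and common WNT readout, averaged 27.1 CPM in KO with ZIC2 and 27.6 in KO cells. AXIN2 was called higher for KO against WT (0.24) and, with LEF1 (1.17), for KO with ZIC2 against WT (0.21). Of all tested genes, 20.0% and 20.3% were called higher in these comparisons. The AXIN2 call for KO with ZIC2 against WT was lost with the GC and length offsets (0.11, edgeR adjusted p = 0.159) and without WT replicate 1 (0.17, edgeR adjusted p = 0.0555). In ZNF263 OE cells edgeR and DESeq2 called 0, with 1 higher and 0 lower at an unadjusted p under 0.05.

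Other genes followed the members across the 12 libraries. Likeness was the root mean square difference of log2 CPM after each gene was centred on its own mean, so a smaller value is a closer match and no shared function is implied. The nearest to EFNB1 were PHOSPHO1 (0.26) and SLC37A2 (0.28), against a spread of 0.91 of EFNB1 around its own mean. For EPHB3 they were PPP1R1B (0.31) and SLC16A3 (0.35), against a spread of 1.19 of EPHB3. EPHB1 was followed most closely by PKDCC (0.10) and ASS1 (0.12), against a spread of 0.40. EFNB2 was matched by PRKCD (0.06) and TLE3 (0.06), against a spread of 0.24 of EFNB2. EPHB4 was matched by HDAC7 (0.03) and NACC1 (0.03), against a spread of 0.14. The spreads of the rest were 0.17 for EPHB2 (nearest ANKFY1 and SRGAP2, 0.08 each), 0.12 for EFNB3 (HBP1 and CPT2) and 0.10 for EPHB6 (VPS33B and SERINC2).

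Some genes used as markers of other cell types that express these genes also differed between groups. Whether such cells were present was not tested. Of 7 fibroblast markers 4 were over 1 CPM in every group, with sums of 633 to 683 CPM in KO with ZIC2 libraries, 552 to 597 in KO, 505 to 518 in ZNF263 OE and 503 to 515 in WT libraries. COL1A1 moved most in CPM, with means of 211 CPM in KO with ZIC2, 111 in KO, 64.9 in ZNF263 OE and 69.2 in WT cells. THY1, the highest of the 7, averaged 301.5 CPM in KO with ZIC2, 343.6 in KO, 349.9 in ZNF263 OE and 337 in WT cells. COL1A2 (114 and 95.3 CPM) and PDGFRB (23.9 and 22.3 CPM) averaged more in KO with ZIC2 than in KO cells. LUM was at 0 in KO with ZIC2 and ZNF263 OE cells and DCN at 0 in ZNF263 OE and WT cells. Of 7 endothelial markers, 5 were over 1 CPM in KO with ZIC2 cells, 3 in KO, 4 in ZNF263 OE and 5 in WT cells, and their sums of 147 to 159 CPM in KO with ZIC2, 150 to 171 in KO, 179 to 183 in ZNF263 OE and 168 to 176 in WT libraries were mostly KDR and TEK. The endothelial cadherin gene CDH5 averaged 2.44 CPM in KO with ZIC2, 0.510 in KO, 0.945 in ZNF263 OE and 1.06 in WT cells. KDR (84.3 and 99.2 CPM) and TIE1 (4.715 and 5.46 CPM) averaged less in KO with ZIC2 than in KO cells. TEK (60.1 and 54.0 CPM) and VWF (2.98 and 0.864 CPM) averaged more. PECAM1 was at most 0.253 CPM in any group, and EMCN was at 0 in ZNF263 OE and WT cells.

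The 6 neural markers summed to 10.2 to 11.2 CPM in KO with ZIC2 libraries, 8.01 to 9.09 in KO, 8.02 to 9.09 in ZNF263 OE and 7.51 to 9.57 in WT libraries, with 3 over 1 CPM in KO with ZIC2 cells and 2 in each other group. STMN2, a neuronal marker, averaged 3.28 CPM in KO with ZIC2, 0.916 in KO, 0.851 in ZNF263 OE and 0.922 in WT cells. DCX, the highest of the 6, averaged 5.13 CPM in KO with ZIC2, 4.96 in KO, 5.57 in ZNF263 OE and 5.36 in WT cells. PAX6 averaged 2.03 CPM in KO with ZIC2, 2.415 in KO, 1.86 in ZNF263 OE and 2.085 in WT cells. NEUROD1 was at 0 in KO with ZIC2 and WT cells. NEUROG2 was at 0 in ZNF263 OE cells. The 4 endoderm markers, nearly all FOXA2, summed to 6.33 to 7.17 CPM in KO with ZIC2, 5.13 to 6.74 in KO, 2.49 to 3.87 in ZNF263 OE and 4.16 to 5.32 in WT libraries, 1 over 1 CPM in each group, with SOX17 at 0 in WT cells. The 5 mesoderm markers of the table summed to 3.19 to 4.97 CPM in KO with ZIC2, 3.31 to 3.95 in KO, 2.22 to 3.63 in ZNF263 OE and 2.60 to 2.95 in WT libraries. The 4 intestinal markers, nearly all VIL1, summed to 16.5 to 19.1 CPM in KO with ZIC2, 14.8 to 15.8 in KO, 9.38 to 11.7 in ZNF263 OE and 11.1 to 11.96 in WT libraries, and CDX1 was at 0 in ZNF263 OE and WT cells. The part of these markers in the EPHB and ephrin-B differences was not tested.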

How the data were processed

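Per the labels, poly(A) RNA libraries were made with a NEBNext Ultra II RNA kit, which does not mark strand. The authors deposited raw whole-number read counts per gene; per the file headers the columns derive from uniquely aligned reads, and the submitters' processing notes list STAR, featureCounts, DESeq2 and hg19, with no version numbers. Without strand, overlapping genes cannot be told apart: among the members EPHB2 shares 34 exon bases with MIR4253, which had 2 counts in all. Coordinates are those of hg19 in the table; exon length is the union of all exons.

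Of 27130 genes, 15437 passed filterByExpr. Counts were scaled by TMM and tested with the quasi-likelihood test of edgeR 4.0.16 (R 4.3.3) in 1 fit of 12 libraries (8 residual degrees of freedom, common BCV 0.04), with Benjamini-Hochberg adjustment within each comparison. The fit was also run on simulated counts that held no GC-dependent shift between groups, so that run does not bear on calls that changed with GC offsets. CPM uses TMM factors; log2 CPM for likeness has a prior count of 2. GC offsets used GENCODE v29 transcripts (values for 95.2% of tested genes). Alternatives were DESeq2 1.42.0, other scaling, no filter, 2-group fits, GC offsets, a replicate block and leaving out libraries. The members, gene lists and markers were chosen with earlier results of these data known. All members were named; of each list, up to 3 called genes with the smallest adjusted p (for A-class genes up to 3 a direction by size), and the 2 nearest genes in likeness. POU5F1, L1TD1, COL1A1, COL1A2, THY1, PDGFRB, CDH5, PECAM1, KDR, TEK, TIE1, VWF, STMN2, DCX, PAX6 and EPHA7 were named after their values had been seen.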

Additional observations from a re-analysis of the deposited data

How the results depend on the processing

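The cause of the changes below was not tested. Of 416 alternative values of the members, 386 kept direction and side of the threshold, 14 gained a call, 5 lost one and 11 changed sign. Members called were 5 for KO against WT (3 to 5 over the leave-outs; 3 without WT replicate 2; 2 higher and 3 lower with GC and length offsets, against 3 higher and 2 lower), 4 for KO with ZIC2 against KO (4 to 5 over the leave-outs; 7 with GC and length offsets, 5 higher and 2 lower), 5 for KO with ZIC2 against WT and 0 for ZNF263 OE against WT. For KO with ZIC2 against WT the leave-outs gave 5 to 6 members called. With GC and length offsets there were 6 in that comparison, 5 higher and 1 lower. The values that changed sign were all uncalled. With GC and length offsets, EPHB6 did so for KO with ZIC2 against WT (-0.066; -0.067 with the replicate block). Of the targeted genes, which are not among the members counted, ZNF263 did so for KO with ZIC2 against KO (-0.008; -0.003 with the block) and ZIC2 for ZNF263 OE against WT (-0.016; -0.015 with the block). Over the leave-outs, KO with ZIC2 against KO gave -0.035 to 0.009 for EPHB4, -0.059 to 0.009 for EFNB3 and, for the targeted ZNF263, -0.029 to 0.106. KO with ZIC2 against WT gave -0.097 to 0.063 for EPHB2, and ZNF263 OE against WT gave -0.052 to 0.095 for EPHB2, -0.025 to 0.008 for EPHB4 and -0.028 to 0.105 for EFNB2. Genes called for KO with ZIC2 against KO were 1288 (771 higher, 517 lower), 2322 with GC offsets (882 higher, 1440 lower), 2269 with GC offsets and the block, 927 by DESeq2 and 882 with only those groups fitted (leave-outs 842 to 1476). For ZNF263 OE against WT they were 118, against 220 with no filter, 236 with GC offsets, 231 with GC offsets and the block and 431 with only those groups fitted (leave-outs 50 to 77). Leave-outs gave 4782 to 5877 for KO against WT (5951 in the full fit) and 4549 to 5486 for KO with ZIC2 against WT (5804). GC offsets gave 4607 for KO against WT (2455 higher, 2152 lower) and 4492 for KO with ZIC2 against WT (2012 higher, 2480 lower). Same-numbered libraries were not shown to be paired: deviations correlated between -0.11 and 0.11, and in no comparison did every library correlate best with its own number. With the replicate block, 5845 genes were called for KO against WT, 1244 for KO with ZIC2 against KO, 5691 for KO with ZIC2 against WT and 108 for ZNF263 OE against WT, with 5, 4, 5 and 0 members. Depth limits EPHB3 most, at 22 to 67 reads per KO library.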
